A study of Mus musculus with 3 samples.

Results

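*Gzma*, *Gzmb*, *Gzmc*, *Gzmk*, *Prf1*, *Nkg7* and *Fasl*, the genes that cytotoxic lymphocytes use to kill target cells, were followed across 3 single-cell libraries of mouse dorsal skin. The 7 genes were taken by symbol from the 32285 genes of the feature list. Their UMIs, the counts of captured mRNA molecules, were summed over 6582 cells of the Neg library, 10433 of the AA library and 9832 of the AA+Ab library. *Prf1* UMIs, and in Neg and AA+Ab also *Nkg7* UMIs, lay mainly in lymphocytes with *Trdc* UMIs, which carried almost no granzyme UMIs. *Gzma* UMIs lay mainly in the few lymphocytes with *Ncr1* UMIs. *Gzmb* and *Fasl* UMIs of the AA library lay mainly in CD8 lymphocytes, which were 1.76% of the AA cells against 0.167% of the Neg cells and 0.631% of the AA+Ab cells.

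A cytotoxic lymphocyte stores perforin and granzymes in granules and releases them onto the cell it has recognised. Perforin, the product of *Prf1*, forms pores in the membrane, and granzymes are serine proteases that enter through the pores and cut proteins inside the target. Fas ligand, the product of *Fasl*, kills by a separate route, through the receptor Fas on the target. *Nkg7* encodes a membrane protein of the granules that takes part in their release. In alopecia areata (AA), CD8 T cells gather around hair follicles, and these genes are markers of their effector state.

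All mice were C3H/HeN females of 25 weeks, and the dorsal skin of 7 to 8 of them was pooled for each library. Neg is labelled a negative (vehicle) control, AA is the alopecia areata model, and AA+Ab is that model treated with a CXCL12-neutralizing antibody, which blocks a chemokine of the skin. AA was induced with lymph node cells of mice with spontaneous AA, expanded in culture with T cell activating beads and cytokines and injected into the skin, so cells of the donors and of the hosts cannot be told apart here. With 1 library per group there was no test between groups, and the intervals given cover counting error only, treating UMIs of 1 cell as independent, which they are not.

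The promoters of *Gzmb*, *Gzma* and *Prf1* are shown because the AA UMIs of these genes lay mainly in different classes of lymphocytes. That of *Nkg7*, the member whose levels ran most like those of *Prf1*, is shown beside them. Each sequence is the RefSeq window of GRCm38.p6 from 250 bases before to 50 bases after the RefSeq start, 5′ to 3′ on the strand of the gene. For *Gzmb*, *Nkg7* and *Gzmk* this start differs from the start of the gene in the GENCODE annotation. Capitals mark matches, on either strand, to the letters TGTGGT (RUNX), GGTGTGA (T-box), TGANTCA (AP-1) and TTCNNNGAA (STAT), none of which overlap in these windows.
Gzmb, chr14:56262285-56262584, minus strand: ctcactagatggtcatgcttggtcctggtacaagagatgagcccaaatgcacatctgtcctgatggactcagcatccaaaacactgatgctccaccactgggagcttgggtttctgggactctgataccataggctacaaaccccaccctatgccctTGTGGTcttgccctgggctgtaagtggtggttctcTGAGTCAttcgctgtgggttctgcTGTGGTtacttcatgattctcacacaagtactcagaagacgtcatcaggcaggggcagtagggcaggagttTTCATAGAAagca
Gzma, chr13:113100932-113101231, minus strand: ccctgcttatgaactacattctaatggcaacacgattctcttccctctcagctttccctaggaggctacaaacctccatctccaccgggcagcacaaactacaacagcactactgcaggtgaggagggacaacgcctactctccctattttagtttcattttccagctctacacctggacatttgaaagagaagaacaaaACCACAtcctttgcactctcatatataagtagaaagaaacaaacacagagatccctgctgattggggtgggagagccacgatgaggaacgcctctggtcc
Prf1, chr10:61297586-61297885, plus strand: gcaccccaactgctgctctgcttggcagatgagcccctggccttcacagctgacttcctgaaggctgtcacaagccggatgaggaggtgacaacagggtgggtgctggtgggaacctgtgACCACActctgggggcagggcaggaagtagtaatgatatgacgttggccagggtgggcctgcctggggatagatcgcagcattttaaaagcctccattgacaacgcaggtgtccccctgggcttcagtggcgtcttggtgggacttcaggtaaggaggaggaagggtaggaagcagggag
Nkg7, chr7:43436888-43437187, plus strand: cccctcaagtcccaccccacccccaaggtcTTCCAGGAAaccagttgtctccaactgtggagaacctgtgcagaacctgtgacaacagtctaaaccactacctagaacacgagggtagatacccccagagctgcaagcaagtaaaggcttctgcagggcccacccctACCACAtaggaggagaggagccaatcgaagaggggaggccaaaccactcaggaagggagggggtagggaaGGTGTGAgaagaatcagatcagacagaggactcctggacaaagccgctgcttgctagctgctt
*Gzmb* held 2 RUNX matches, 1 AP-1 match and 1 STAT match. *Gzma* and *Prf1* held 1 RUNX match each, and *Nkg7* held 1 RUNX, 1 T-box and 1 STAT match. *Gzmc* held 2 RUNX matches, *Gzmk* 1 T-box match and *Fasl* none. Of 32851 promoter windows of the same length, 16.8% held the RUNX letters, 3.98% the T-box letters, 7.81% the AP-1 letters and 8.3% the STAT letters. A match is a description of the letters and not a binding site. In GRCm38, *Gzma* and *Gzmk* lie on chromosome 13, *Gzmb* and *Gzmc* on chromosome 14, *Prf1* on chromosome 10, *Nkg7* on chromosome 7 and *Fasl* on chromosome 1. No stretch of 50 bases in the last 500 bases of a granzyme transcript, where a 3′ library counts its reads, was shared between *Gzma*, *Gzmb*, *Gzmc* or *Gzmk* and another granzyme, so the UMIs of these 4 genes could be told apart.

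The kept cells held 119193310 to 139663314 UMIs per library, with medians of 13694.5 UMIs per cell in Neg, 11177 in AA and 11371 in AA+Ab. Each pair of libraries shared 17 to 28 barcodes, and none was a lymphocyte in both. Lymphocytes were taken as cells with a *Ptprc* UMI, at least 2 UMIs of 14 lymphocyte genes, at most 2% keratin UMIs and fewer UMIs of myeloid, Langerhans and B cell genes than of that list. They were 282 of the Neg cells (4.28%), 465 of the AA cells (4.46%) and 421 of the AA+Ab cells (4.28%). They were assigned in turn to an *Ncr1*-positive class, a *Trdc*-positive class, CD8 (*Cd8a* or *Cd8b1* without *Cd4*) and CD4 (*Cd4* without *Cd8a* or *Cd8b1*). *Ncr1* encodes an activating receptor of natural killer (NK) cells and other innate lymphocytes, and *Trdc* the constant region of the gamma-delta T cell receptor.

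The make-up of the lymphocytes differed between the libraries more than their number did. CD8 lymphocytes were 11 in Neg (0.167% of cells, 95% interval 0.0835 to 0.299), 184 in AA (1.76%, 1.52 to 2.03) and 62 in AA+Ab (0.631%, 0.484 to 0.808). *Trdc*-positive lymphocytes were 177 in Neg (2.69%), 115 in AA (1.10%) and 221 in AA+Ab (2.25%). *Ncr1*-positive lymphocytes were 21, 21 and 13, and CD4 lymphocytes 16, 26 and 43. The intervals of the CD8 share did not overlap between any pair of libraries, and the AA interval of the *Trdc*-positive share lay below both others. A further 57, 110 and 82 lymphocytes had none of these markers, and 9 AA cells had both *Cd4* and *Cd8* UMIs.

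**Figure D1:**
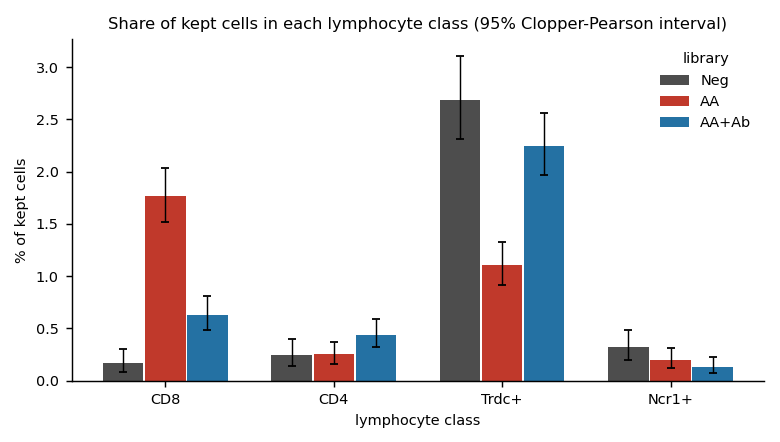
Share of kept cells (y axis, %) in each lymphocyte class (x axis) by library, with bars for the share and lines for the 95% Clopper-Pearson interval. The CD8 share was highest in AA at 1.76%, where the *Trdc*-positive share was lowest at 1.10%.

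The markers of each name were found in its class, beside UMIs of other lists. All 11 Neg CD8 cells had UMIs of the T cell list and none had UMIs of the 4 gamma-delta genes, and of the NK list 1 gene of 7 was found there. Of the 184 AA CD8 cells, 183 had UMIs of the T cell list, 10 of the gamma-delta genes and 9 of the NK list, with 4 of its 7 genes found. All 4 gamma-delta genes were found in the *Trdc*-positive class of each library, with summed levels of 2142, 2331 and 2646 CPM (UMIs per 1000000 UMIs of the same cells) in Neg, AA and AA+Ab, and *Ncr1* was at 0 by construction. In the *Ncr1*-positive class 6, 5 and 5 of the 7 NK genes were found, and *Cd3e* was at 0 in Neg and AA. Of the T cell list 4 of 6 genes were found there in Neg and in AA, at 698 and 740 CPM, in 20 and 19 of 21 cells. UMIs of *Cd3d*, *Cd3e* or *Cd3g* were in 5 of 21, 4 of 21 and 5 of 13 cells of Neg, AA and AA+Ab. One AA+Ab cell of that class held 5 *Cd8a*, 2 *Cd8b1* and 22 *Cd3g* UMIs beside 2 *Ncr1* UMIs. In the CD8 class the 4 genes of the CD4 T cell list gave 50.6, 476 and 251 CPM, in 1 of 11, 119 of 184 and 36 of 62 cells, with *Cd4* itself at 0 by construction. The 8 macrophage and dendritic cell genes gave 12.7, 185 and 11.5 CPM there and the keratinocyte genes 3455, 3334 and 5865 CPM. Both of the first lists were highest in AA, as *Gzmb* was, and the part of other cells or free RNA in the CD8 values was not tested. Keratin-rich cells without *Ptprc* UMIs (2118, 3886 and 3251 cells, medians of 11469 to 13161 UMIs) set the background of the 7 genes, where no gene was above 0.818 CPM and at most 1.05% of cells had a UMI of any 1 of them. Lymphocyte classes had medians of 3176.5 to 7475 UMIs per cell, so the background came from deeper cells.

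The class that held most UMIs differed between the genes and, for some of them, between the libraries. In Neg, 97.0% of the *Gzma* UMIs and 69.2% of the *Gzmb* UMIs lay in *Ncr1*-positive lymphocytes, and 84.9% of the *Prf1* UMIs and 76.1% of the *Nkg7* UMIs in *Trdc*-positive lymphocytes. In AA, 57.5% of the *Gzmb* UMIs and 58.8% of the *Fasl* UMIs lay in CD8 lymphocytes, against 6.84% and 6.67% in Neg. The CD8 share of the *Gzmb* UMIs was 26.0% in AA+Ab, where 43.1% lay in *Ncr1*-positive lymphocytes, while the CD8 share of the *Fasl* UMIs was 59.2%. *Gzma* UMIs stayed mostly in *Ncr1*-positive lymphocytes, with 59.4% in AA and 78.6% in AA+Ab. *Prf1* UMIs stayed mostly in *Trdc*-positive lymphocytes, with 64.6% and 82.1%. *Nkg7* UMIs of AA were split between CD8 (38.5%) and *Trdc*-positive lymphocytes (35.8%).

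**Figure D2:**
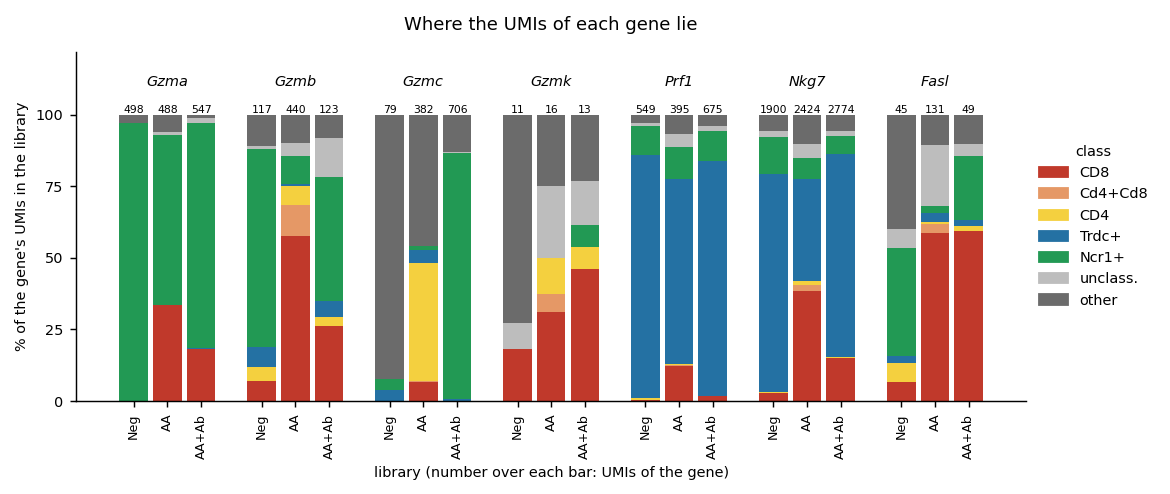
Share of the UMIs of each gene (y axis, %) that lay in each class (colours) in Neg, AA and AA+Ab (x axis), with the number of UMIs of the gene over each bar. *Gzmb* and *Fasl* UMIs of AA lay mainly in CD8 lymphocytes (57.5% and 58.8%), *Gzma* in *Ncr1*-positive and *Prf1* in *Trdc*-positive lymphocytes.

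At the level of the whole library, *Gzmb* and *Fasl* were highest in AA and *Prf1* was lowest there. *Gzmb* was at 0.982, 3.24 and 0.881 CPM in Neg, AA and AA+Ab, a log2 ratio of 1.72 (1.43 to 2.03) for AA to Neg and of -1.88 (-2.18 to -1.59) for AA+Ab to AA. *Fasl* was at 0.378, 0.966 and 0.351 CPM, with log2 ratios of 1.36 (0.86 to 1.88) and -1.46 (-1.97 to -0.98). *Prf1* went the other way at 4.61, 2.91 and 4.83 CPM, with log2 ratios of -0.66 (-0.85 to -0.47) and 0.73 (0.55 to 0.91). AA also had the highest CD8 share and the lowest *Trdc*-positive share. For AA+Ab to Neg the log2 ratios were small, at -0.16 for *Gzmb*, -0.11 for *Fasl* and 0.07 for *Prf1*. Under the other ways to process the data, every interval found for these ratios held 0. No order of Neg and AA+Ab can thus be read from these levels. The CD8 share was higher in AA+Ab than in Neg and the *Trdc*-positive share lower, and their part in the levels was not tested. A whole-library level cannot tell fewer cells of a class from less RNA per cell. *Gzma* (4.18, 3.60 and 3.92 CPM) and *Nkg7* (15.9, 17.9 and 19.9 CPM) had AA to Neg log2 ratios of -0.22 and 0.17. By the fold rule used below, 0.205% of 19482 genes were higher and 0.0719% lower in AA than in Neg over all cells, and none of the 7 genes was among them. For AA+Ab to AA these shares were 0.123% and 0.329%, again with none of the 7. *Gzmb* and *Fasl* were past 2-fold by CPM in both comparisons and were not counted because 5 CPM were added to levels this low.

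*Gzmb* encodes granzyme B, which cuts proteins in target cells. In CD8 lymphocytes it had 8 UMIs in Neg (101 CPM, 43.7 to 199.5), 253 in AA (255 CPM, 225 to 289) and 32 in AA+Ab (73.7 CPM, 50.4 to 104). The AA interval lay above both others, and the Neg and AA+Ab intervals overlapped. The log2 ratio was 1.33 (0.33 to 2.56) for AA to Neg, -1.79 (-2.37 to -1.26) for AA+Ab to AA and -0.46 (-1.61 to 0.87) for AA+Ab to Neg. The share of CD8 cells with a *Gzmb* UMI was 2 of 11 cells in Neg (18.2%, 2.28 to 51.8), 59 of 184 in AA (32.1%, 25.4 to 39.3) and 17 of 62 in AA+Ab (27.4%, 16.9 to 40.2), with overlapping intervals. In the keratin-rich cells it was 0.0308% to 0.129%. With every cell thinned to 1000 UMIs the share was 14.2% in AA (9.50 to 20.1) and 14.5% in AA+Ab (6.86 to 25.8), and with 2000 UMIs it was 25.2% (18.7 to 32.5) and 13.3% (5.94 to 24.6), so whether the shares differ depends on the depth and the intervals overlapped at both. Positive cells had 4.29 *Gzmb* UMIs each in AA and 1.88 in AA+Ab, with a median of 2 in both, and the 2 positive cells of Neg had a median of 4.

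In AA, 12 CD8 cells had 5 or more *Gzmb* UMIs and held 161 of the 253 UMIs, 6 of them had 10 or more, and the highest had 45. In AA+Ab, 1 cell of 62 had 5 UMIs and none had more, and in Neg 1 cell of 11 had 5. Without the cell with the most *Gzmb* UMIs in each library, the levels were 40.2, 211 and 62.7 CPM. Over 14 other ways to process the data the AA+Ab to AA log2 ratio lay between -1.86 and -1.19, and each of the 13 that gave an interval had it below 0. The AA to Neg log2 ratio lay between 0.33 and 2.40 over 14 ways, the lowest with 2 UMIs of *Cd8a* and *Cd8b1* asked of each cell, and 10 of the 13 intervals lay above 0 while the other 3 held it.

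The Neg CD8 class was small, and 1 dividing cell held 26981 of its 79013 UMIs. Cells with 5 or more UMIs of 5 dividing-cell genes numbered 1 of 11 in Neg, 13 of 184 in AA and 12 of 62 in AA+Ab. Among the cells without them, *Gzmb* was at 154 CPM (66.4 to 303) in Neg, 307 (270 to 348) in AA and 99.3 (65.5 to 145) in AA+Ab. AA remained the highest there, and its interval overlapped that of Neg. Within the dividing CD8 cells *Gzmb* was lower, at 37.0 CPM in AA and 30.7 in AA+Ab, with intervals that overlapped.

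**Figure D3:**
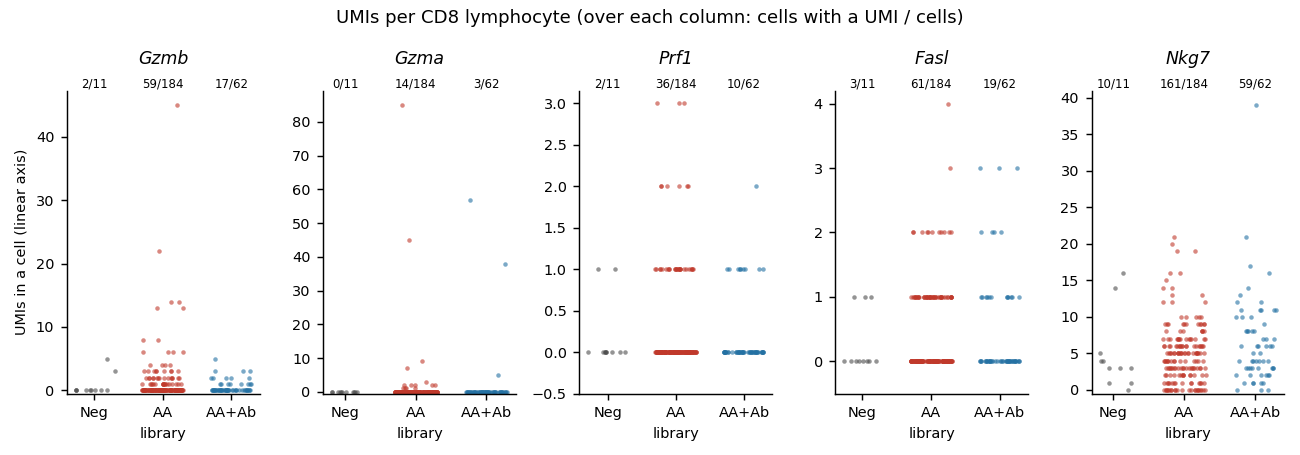
UMIs per cell (y axis, linear) of *Gzmb*, *Gzma*, *Prf1*, *Fasl* and *Nkg7* in each CD8 lymphocyte of Neg, AA and AA+Ab (x axis), 1 point per cell, with the number of cells with a UMI over each column. In AA *Gzmb* reached 45 UMIs in a cell against 5 in Neg and AA+Ab, and most *Gzma* UMIs came from 1 or 2 cells.

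*Gzmb* was also found in *Ncr1*-positive lymphocytes, and in AA the 9 cells with both *Cd4* and *Cd8* UMIs held 10.9% of its UMIs. *Ncr1*-positive lymphocytes had 81 UMIs in Neg (483 CPM, 384 to 601), 43 in AA (335 CPM, 243 to 451) and 53 in AA+Ab (595 CPM, 446 to 778), in 17 of 21, 10 of 21 and 9 of 13 cells. The AA+Ab to AA log2 ratio there was 0.83 (0.22 to 1.44), opposite in sign to that of CD8 lymphocytes. CD4 lymphocytes had 6, 29 and 4 *Gzmb* UMIs (41.1, 167 and 14.3 CPM), in 2 of 16, 5 of 26 and 2 of 43 cells. *Trdc*-positive lymphocytes had 8, 3 and 7 UMIs (4.74, 4.51 and 4.47 CPM), at 1.69%, 0.870% and 2.26% of cells. Within AA, *Gzmb* was 56.7-fold (19.2 to 277) higher in CD8 than in *Trdc*-positive lymphocytes, and the CD8 and *Ncr1*-positive levels did not differ beyond counting error (1.31-fold, 0.927 to 1.82).

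*Gzma* encodes granzyme A, a protease with another specificity. *Ncr1*-positive lymphocytes had 483 *Gzma* UMIs in Neg (2881 CPM, 2630.1 to 3150), 290 in AA (2260.0 CPM, 2007 to 2536) and 430 in AA+Ab (4825 CPM, 4379 to 5303). These came from 10 of 21, 9 of 21 and 7 of 13 cells, of which 9, 6 and 6 had 10 or more UMIs, so the class held cells with much *Gzma* and cells with none. The log2 ratio was -0.35 (-0.57 to -0.14) for AA to Neg and 1.09 (0.88 to 1.31) for AA+Ab to AA, and they rest on those 10, 9 and 7 positive cells. Keratinocyte genes gave 4683, 1551 and 4051 CPM in this class and the 5 dividing-cell genes 2470, 1161 and 168 CPM, and their part in the *Gzma* levels was not tested. No *Trdc*-positive cell of Neg or AA and no CD4 cell had a *Gzma* UMI, and 1 of 221 *Trdc*-positive cells of AA+Ab had 1. In Neg the *Ncr1*-positive level was at least 1623-fold higher than the *Trdc*-positive level, with a floor of 3 UMIs in that class.

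CD8 lymphocytes had 0 *Gzma* UMIs in Neg (0 of 11 cells, which allows a share of cells with a UMI of up to 27.3%), 163 in AA (165 CPM) and 100 in AA+Ab (230 CPM). The UMIs came from 14 of 184 AA cells and 3 of 62 AA+Ab cells, and 1 cell held 85 of the AA UMIs and another 57 of the AA+Ab UMIs. Without those cells the levels were 79.0 and 99.9 CPM. The AA cell with 85 *Gzma* UMIs also held 22 *Gzmb* UMIs.

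*Gzmc* and *Gzmk* encode 2 further granzymes, and both were sparse. In *Gzmc* single cells set almost every level. In AA, 1 CD4 cell held 156 of 157 UMIs, 1 CD8 cell 24 of 26 and 1 *Trdc*-positive cell 15 of 18, and in AA+Ab 1 *Ncr1*-positive cell held all 608 of that class. That cell is the one with *Cd8a* and *Cd3g* UMIs, its 608 *Gzmc* UMIs were 5.08% of all its UMIs, and it also held 14 *Prf1* UMIs. Over all cells *Gzmc* was at 0.663, 2.82 and 5.06 CPM, and at 0.638, 1.67 and 0.702 CPM without the top cell of each library, so the sign of AA+Ab to AA turned. *Gzmk* had 11, 16 and 13 UMIs over all cells, with 2, 5 and 6 in CD8 lymphocytes, and no difference was detectable at this depth. The neighbouring granzyme genes *Gzmd*, *Gzme*, *Gzmf*, *Gzmg* and *Gzmn* were at 0 in the cells with the most *Gzmc* UMIs.

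*Prf1*, the pore former, was found mainly in cells with no granzyme. *Trdc*-positive lymphocytes had 466 *Prf1* UMIs in Neg (276 CPM, 251 to 302), 255 in AA (383 CPM, 337 to 433) and 554 in AA+Ab (354 CPM, 325 to 385). They came from 129 of 177 cells (72.9%), 77 of 115 (67.0%) and 164 of 221 (74.2%), against 0.123% to 0.236% of the keratin-rich cells. Of these cells 125, 75 and 158 (96.9%, 97.4% and 96.3%) had no UMI of *Gzma*, *Gzmb*, *Gzmc* or *Gzmk*. Granzyme UMIs missed by shallow capture count as none in this share. In the *Ncr1*-positive class, at medians of 5182 to 5205 UMIs per cell against 4607 to 5609, only 1 cell with *Prf1* per library lacked a granzyme UMI, of 15, 11 and 11.

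In *Trdc*-positive lymphocytes the log2 ratio of *Prf1* was 0.47 (0.25 to 0.70) for AA to Neg and -0.11 (-0.33 to 0.11) for AA+Ab to AA, and the first was -0.02 when the CPM of each cell was averaged in place of summing UMIs. *Ncr1*-positive lymphocytes had 56, 44 and 71 *Prf1* UMIs (334, 343 and 797 CPM), an AA+Ab to AA log2 ratio of 1.22 (0.65 to 1.79). These came from 15 of 21, 11 of 21 and 11 of 13 cells. The AA+Ab cell with *Cd8a* and *Cd3g* UMIs held 14 of the 71, and without cells with *Cd3* UMIs the ratio was 0.997. CD8 lymphocytes had 2, 48 and 11 *Prf1* UMIs (25.3, 48.5 and 25.3 CPM), in 2 of 11, 36 of 184 and 10 of 62 cells. The CD8 intervals of all 3 libraries overlapped. Within a library *Prf1* was 10.9-fold (3.0 to 90.2) higher in *Trdc*-positive than in CD8 lymphocytes in Neg, where CD8 rests on 2 UMIs. It was 7.90-fold (5.79 to 11) higher in AA and 14.0-fold (7.76 to 28.2) in AA+Ab.

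*Nkg7*, the granule membrane protein, was found in most CD8, *Trdc*-positive and *Ncr1*-positive lymphocytes. CD8 lymphocytes had 54 UMIs in Neg (683 CPM, 513 to 892), 934 in AA (943 CPM, 883 to 1005) and 414 in AA+Ab (953 CPM, 863 to 1049), in 10 of 11, 161 of 184 and 59 of 62 cells. AA and AA+Ab did not differ beyond counting error, with a log2 ratio of 0.02 (-0.16 to 0.18). The AA to Neg log2 ratio was 0.46 (0.07 to 0.89) and turned to -0.36 with 2 UMIs of *Cd8a* and *Cd8b1* per cell. Among CD8 cells that were not dividing the levels were 980, 1074 and 1122 CPM, with intervals that overlapped.

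*Trdc*-positive lymphocytes had 1446, 868 and 1974 *Nkg7* UMIs (856, 1304 and 1262 CPM), in 86.4%, 83.5% and 89.6% of cells. The AA to Neg log2 ratio was 0.61 (0.48 to 0.73), or 0.16 by the mean of cell CPM, and that of AA+Ab to AA was -0.05 (-0.16 to 0.07). Keratinocyte genes gave 7609, 2499 and 4291 CPM in the same cells, lowest in AA, and their part in the *Nkg7* levels was not tested. *Ncr1*-positive lymphocytes had 251, 175 and 166 UMIs (1497, 1364 and 1863 CPM), in 20 of 21, 21 of 21 and 13 of 13 cells. CD4 lymphocytes had 3, 32 and 9 UMIs (20.6, 185 and 32.3 CPM), in 1 of 16, 7 of 26 and 2 of 43 cells. *Nkg7* was thus found in a minority of CD4 cells and in most cells of the other 3 classes.

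*Fasl*, the death ligand, had few UMIs per cell everywhere. CD8 lymphocytes had 3 in Neg (38.0 CPM, 7.83 to 111), 77 in AA (77.7 CPM, 61.3 to 97.2) and 29 in AA+Ab (66.7 CPM, 44.7 to 95.9), in 3 of 11, 61 of 184 and 19 of 62 cells. The shares of 27.3%, 33.2% and 30.6% had overlapping intervals, and the levels did not differ beyond counting error, with log2 ratios of 1.03 (-0.57 to 3.34) for AA to Neg and -0.22 (-0.89 to 0.41) for AA+Ab to AA. *Ncr1*-positive lymphocytes had 17, 3 and 11 *Fasl* UMIs (101, 23.4 and 123 CPM), in 10, 3 and 5 cells. *Trdc*-positive lymphocytes had 1, 4 and 1, so the difference from CD8 lymphocytes was 12.9-fold (4.85 to 48.7) in AA. In AA a further 28 *Fasl* UMIs lay in unclassified lymphocytes, against 3 in Neg and 2 in AA+Ab.

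**Figure D4:**
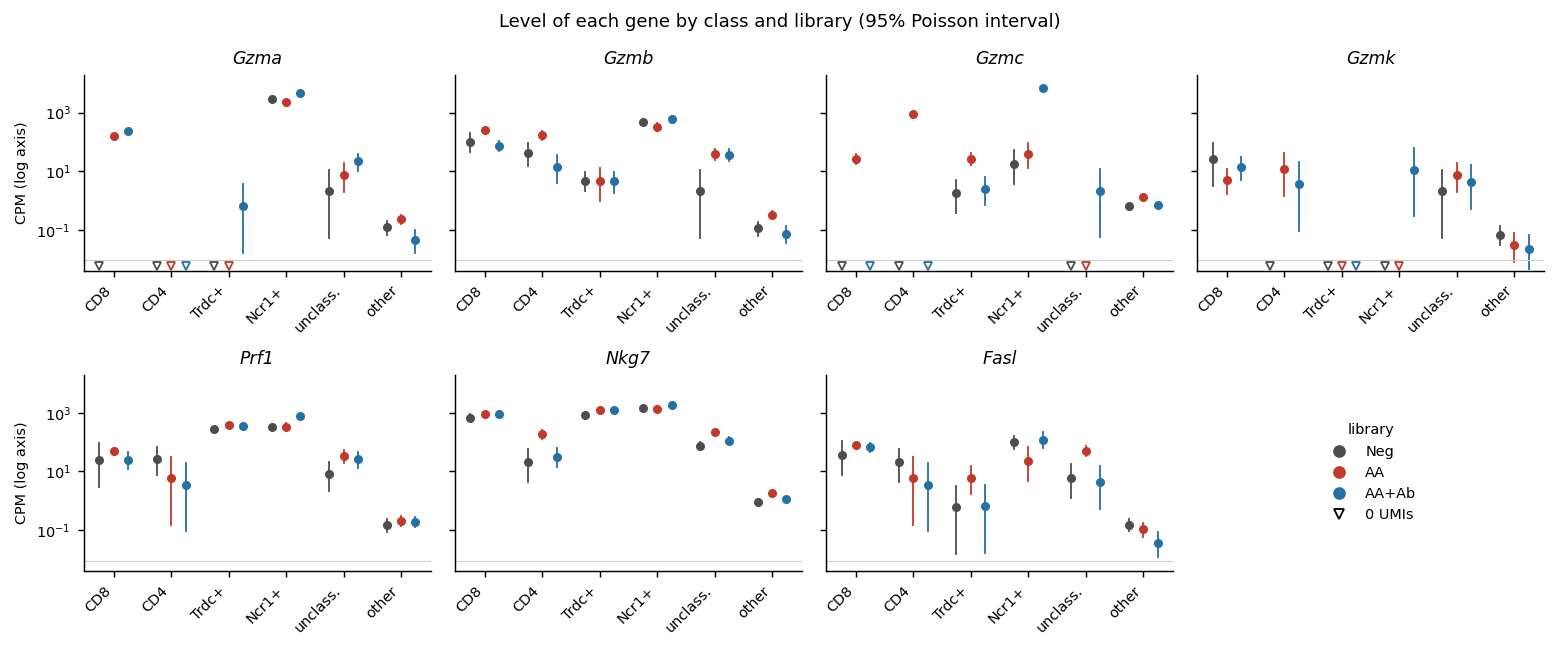
CPM of each gene (y axis, log scale) in 6 classes of cells (x axis) of Neg, AA and AA+Ab, with points for the level, lines for the 95% Poisson interval and open triangles for 0 UMIs. *Gzma* was highest in *Ncr1*-positive lymphocytes (2260.0 to 4825 CPM), and *Prf1* was higher in *Trdc*-positive (276 to 383 CPM) than in CD8 lymphocytes (25.3 to 48.5 CPM).

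Members were found together in the same CD8 cells to a limited extent. In AA, 18 of the 59 *Gzmb*-positive CD8 cells had *Prf1* (30.5%), 20 had *Fasl* (33.9%) and 56 had *Nkg7* (94.9%). In AA+Ab 3 of 17 had *Prf1* (17.6%), 3 had *Fasl* (17.6%) and 16 had *Nkg7* (94.1%). All 14 *Gzma*-positive CD8 cells of AA had *Nkg7*, 9 had *Prf1* and 7 had *Gzmb*. At least 1 granzyme was found in 4 of 11 Neg, 70 of 184 AA and 18 of 62 AA+Ab CD8 cells (36.4%, 38.0% and 29.0%), and at least 3 members in 2, 41 and 10 cells. No UMI of any member was found in 1, 15 and 1 CD8 cells. In *Ncr1*-positive lymphocytes, all 10 *Gzma*-positive cells of Neg had *Gzmb*, *Prf1* and *Nkg7* as well.

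The summed level of the 7 genes in CD8 lymphocytes was 873, 1520.4 and 1363 CPM, a log2 ratio of 0.80 (0.45 to 1.17) for AA to Neg and of -0.16 (-0.30 to -0.02) for AA+Ab to AA, most of it *Nkg7*. The first ratio was 0.043 (-0.34 to 0.45) with 2 UMIs of *Cd8a* and *Cd8b1* per cell and 0.14 (-0.13 to 0.43) with CD8 and CD4 assigned first, and the second changed its sign with the definition of the class. The members were then set beside all genes with at least 20 UMIs in the same comparison. A gene was counted when its ratio of (CPM + 5) was at least 2 in a direction. Several members reached 20 UMIs only through the library where they were high, so these counts describe the members and support no difference. In CD8 lymphocytes 3 of 6 members (*Gzma*, *Gzmb* and *Gzmc*) were higher in AA than in Neg and none was lower, where 26.9% of 6487 genes were higher and 5.56% lower. The median log2 ratio was 1.12 over the members and 0.38 over all genes, so the comparison with the small Neg class was shifted upwards for most genes. For AA+Ab to AA, 2 of 6 members (*Gzmb* and *Gzmc*) were lower and none was higher, where 5.48% of 7542 genes were lower and 3.46% higher. *Gzmc* counts through the 24 UMIs of 1 cell, and *Gzma* and *Gzmc* had 0 UMIs in Neg. For AA+Ab to Neg, 1 of 4 members (*Gzma*) was higher, where 19.3% of 4127 genes were higher and 4.26% lower.

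In CD4 lymphocytes 3 members passed the filter, *Gzmb* (6 and 29 UMIs in Neg and AA), *Gzmc* (0 and 157, 156 of them in 1 cell) and *Nkg7* (3 and 32), each of them through its AA UMIs. They were higher in AA than in Neg, where 15% of genes were higher and 8.12% lower. They were lower in AA+Ab than in AA, where 7.22% of genes were lower and 10.3% higher. In unclassified lymphocytes 4 members passed (*Gzmb*, *Prf1*, *Nkg7* and *Fasl*) and were higher in AA than in Neg, where 5.66% of genes were higher and 6.2% lower. Of these *Gzmb* (1 and 21 UMIs), *Prf1* (4 and 18) and *Fasl* (3 and 28) passed through AA. There 1 of 4, *Fasl*, was lower in AA+Ab than in AA, where 7.93% of genes were lower and 4.48% higher. In *Trdc*-positive lymphocytes 1 of 3 members, *Gzmc*, was higher in AA than in Neg through 1 cell, where 2.38% of genes were higher and 6.66% lower, and it was lower in AA+Ab than in AA, where 2.12% were lower and 4.29% higher. In *Ncr1*-positive lymphocytes *Fasl* was the 1 of 5 members lower in AA than in Neg, where 6.29% of genes were lower and 9.99% higher. It reached the filter mostly through its 17 UMIs in Neg, against 3 in AA. There *Gzma*, *Gzmc* and *Prf1* (3 of 5) were higher in AA+Ab than in AA, where 4.79% of genes were higher and 10.3% lower. Of these *Gzmc* passed only through 1 AA+Ab cell with 608 UMIs, against 5 UMIs in AA. The comparisons share libraries, so their counts are not independent of each other.

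**Figure D5:**
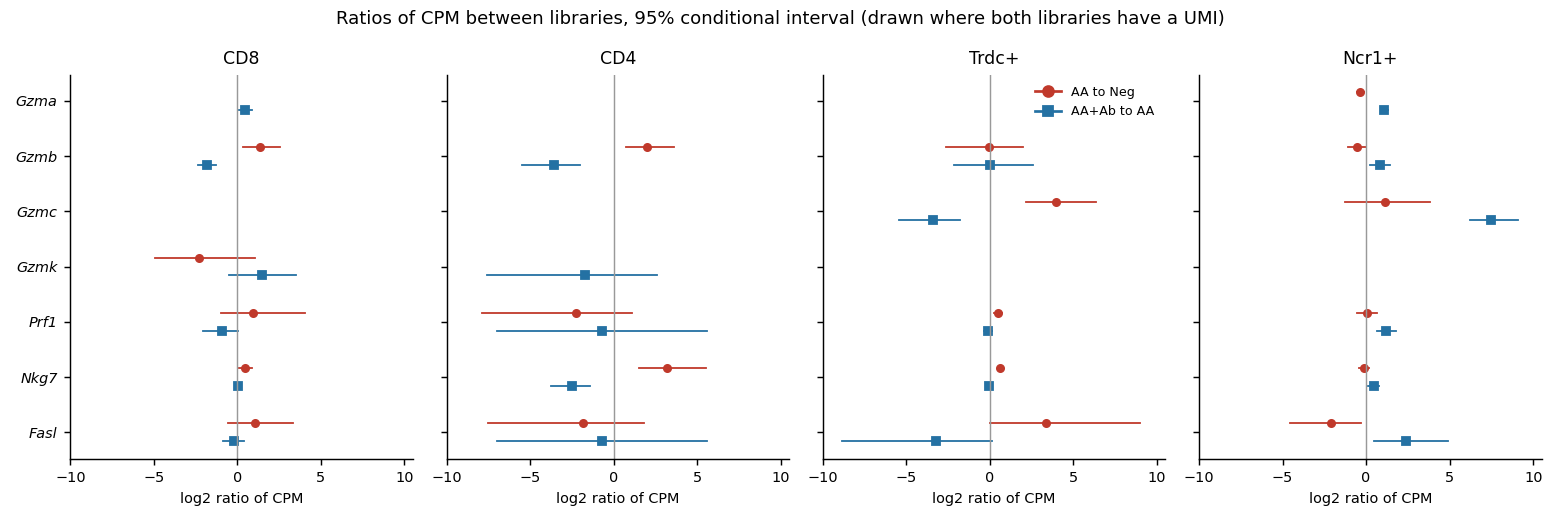
Log2 ratios of CPM (x axis) of each gene (y axis) for AA to Neg (red circles) and AA+Ab to AA (blue squares) in 4 classes, with lines for the 95% conditional interval, drawn where both libraries had a UMI. *Gzmb* was higher in AA than in Neg (1.33) and lower in AA+Ab than in AA (-1.79) in CD8 lymphocytes, with intervals that leave out 0. The first ratio rests on 8 UMIs in 2 of 11 Neg cells, and its interval held 0 under some other ways to process the data.

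Other genes of the pathway were read in CD8 lymphocytes from lists of known genes, against 26.9% higher and 5.56% lower of the 6487 genes tested for AA to Neg. The Neg class held 79013 UMIs against 990528 in AA, so a gene could pass the UMI filter through AA alone. *Stx11*, *Rab27a*, *Fas*, *Lta*, *Prdm1*, *Tyrobp* and *Fcer1g*, all counted as higher, did so with at most 2 UMIs in Neg. The counts of higher and lower genes thus describe the lists and support no difference. Of the granule and release list, 3 of 8 genes with enough UMIs were higher in AA than in Neg and none lower (median log2 ratio 0.54 against 0.38 over all genes). *Stx11* and *Rab27a*, which act in granule fusion and docking, had 1, 54 and 10 and 2, 75 and 30 UMIs in Neg, AA and AA+Ab. *Ctsw*, a protease of cytotoxic cells, was at 177, 436 and 375 CPM, and *Srgn*, the proteoglycan core that packs granules, at 962, 1552 and 1061 CPM. Of a list of serpin genes, drawn up as possible granzyme inhibitors, 1 of 3 was lower and none higher. This was *Serpinb9*, the inhibitor of granzyme B, at 114, 29.3 and 16.1 CPM on 9, 29 and 7 UMIs, a log2 ratio of -1.96 (-3.08 to -0.70). *Serpina3g* (25.3, 12.1 and 16.1 CPM), *Serpinb6b* (38.0, 47.4 and 11.5 CPM) and *Serpinb6a* (101, 124 and 145 CPM) had intervals that held 0.

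Of the death ligands and receptors, 6 of 9 were higher in AA than in Neg and none lower (median 1.13). *Fas*, the receptor of Fas ligand, had 0, 76 and 22 UMIs, and *Lta*, a TNF family cytokine, 0, 35 and 12. *Tnfrsf1a*, a TNF receptor, had 1, 37 and 17. Neg had at most 1 UMI of each, so no ratio could be set for them with any precision. Of the regulators of the effector state, 2 of 7 were higher and none lower (median 0.34, below that of all genes). *Tbx21*, which encodes T-bet, was at 88.6, 505 and 226 CPM, with a log2 ratio of 2.51 (1.46 to 3.83) for AA to Neg. *Prdm1*, which encodes Blimp-1, had 0, 60 and 13 UMIs. *Runx3* was at 177, 297 and 140 CPM and *Tcf7*, a gene of less differentiated T cells, at 152, 112 and 143 CPM.

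Of the cytokines and chemokines 4 of 5 were higher and none lower (median 1.92). *Ifng*, which encodes interferon gamma, was at 139, 542 and 463 CPM, with a log2 ratio of 1.96 (1.11 to 2.97). The chemokines *Ccl3* (25.3, 281 and 129 CPM), *Ccl4* (329, 1359 and 1201 CPM) and *Xcl1* (114, 236 and 223 CPM) were also highest in AA. Of the NK receptors and adaptors 2 of 7 were higher and none lower (median 0.70). These were *Tyrobp* (0, 28 and 3 UMIs) and *Fcer1g* (0, 23 and 0 UMIs), which passed the UMI filter through AA alone. *Klrd1* (127, 231 and 136 CPM) and *Klrk1* (202, 333 and 253 CPM) had intervals that held 0. In AA+Ab against AA the same lists had 0 genes higher and 1 of 9, 1 of 3, 1 of 9, 3 of 7, 1 of 5 and 2 of 7 lower, in the order given, against 3.46% higher and 5.48% lower of 7542 genes. The median of all genes was -0.07 there, and those of the lists were -0.21, -0.70, -0.46, -0.91, -0.23 and -0.68 in the same order. None of the other granzymes *Gzmd* to *Gzmg*, *Gzmm* and *Gzmn* had enough UMIs in CD8 lymphocytes.

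The genes whose levels ran most like those of the members were found over 18 points, 6 classes in each of 3 libraries, which share libraries and differ in depth. *Nkg7* was most like *Ctsw* (Pearson's r of log2(CPM + 10) 0.97), the NK receptor gene *Klrd1* (0.96) and *Atp8b4* (0.95). *Prf1* was most like the NK receptor gene *Klri1*, *4930486L24Rik* and *Klrd1* (0.93, 0.93 and 0.92). *Gzma* was most like *Ccl3*, *Samd3* and *Gm33104* (0.93 each), *Gzmb* like *Ifngr1* (0.94) and *Nfatc1* (0.93), and *Fasl* like *Ubr2* (0.89), *Ccl5* (0.88) and *Ccl4* (0.87). Among the members themselves, *Prf1* and *Nkg7* (0.84), *Gzmb* and *Fasl* (0.84) and *Gzma* and *Gzmb* (0.82) ran most alike, and *Gzmk* and *Prf1* least (-0.12). For *Gzmc* (*Cdkn2c*, *Pitpna* and *Hace1*, 0.80 to 0.81) and *Gzmk* (*Cmpk1*, *Gm27162* and *Igflr1*, 0.84 to 0.86) sparse counts make the likeness weak.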

How the data were processed

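Single-cell libraries were made by the authors with the 10x 3′ v3.1 protocol, and reads were aligned to mm10 and counted with Cell Ranger 7.2.0. The annotation release is not given in the sources used here. The deposited matrices give UMI counts that the authors did not normalize. Cells were kept here at 200 genes or more and at most 10% mitochondrial UMIs. For each class of each library the counts of a gene were added up and scaled to 1000000 UMIs (CPM). Levels have exact Poisson, shares Clopper-Pearson and ratios exact conditional intervals at 95%. With 1 library per group, no p-value was computed. The members and lists were chosen with earlier results of these data known. Named genes are all members, up to 4 genes per list with the largest absolute log2 ratio of (CPM + 5) AA to Neg in CD8 lymphocytes among those with 20 UMIs over the 3 libraries, and the 3 genes most like each member, of which 2 genes are not reported here. Doublets were removed only in an alternative. The ratio step was tested on simulated counts with 200 changed genes. In CD8 lymphocytes (6483 genes) 100 of 100 raised and 100 of 100 lowered genes passed the fold, with 944 of 6283 unchanged genes. Over all cells (19491 genes) 81 of 100 raised, 66 of 100 lowered and 0 of 19291 unchanged genes passed. The changed genes were drawn from those with at least 200 UMIs expected over Neg and AA, more than most members had in CD8 lymphocytes. Single cells with many UMIs of a gene were not simulated, so the result does not carry over to sparse members. Python 3.11.15, numpy 2.4.6, scipy 1.17.1, pandas 2.3.3, scikit-learn 1.9.0 and matplotlib 3.10.9 were used. Gene positions are those of the GENCODE annotation of GRCm38, promoters those of RefSeq, and sequences of the proteins were not used here.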

Additional observations from a re-analysis of the deposited data

Results flagged for a closer look

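Some members had ratios of opposite sign in 2 classes, with intervals on opposite sides of 0, and these differences were not tested. *Gzmb* had an AA+Ab to AA log2 ratio of 0.83 in *Ncr1*-positive lymphocytes, -1.79 in CD8 and -3.54 in CD4 lymphocytes, the last on 29 and 4 UMIs. *Nkg7* had one of 0.45 in *Ncr1*-positive and -2.52 in CD4 lymphocytes. *Gzmc* had one of 7.45 in *Ncr1*-positive and -3.40 in *Trdc*-positive lymphocytes, and without 1 cell in each AA+Ab and AA class it was at 0 and 4.59 CPM. *Fasl* had an AA to Neg log2 ratio of 3.34 in *Trdc*-positive lymphocytes, on 4 and 1 UMIs, and of -2.12 in *Ncr1*-positive lymphocytes, on 3 and 17 UMIs.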

How the results depend on the processing

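For the summed 7 genes, log2 ratios are given as AA to Neg, then AA+Ab to AA, then AA+Ab to Neg. The values as reported were 0.80, -0.16 and 0.64 in CD8, 3.55, -4.48 and -0.94 in CD4, 0.60, -0.09 and 0.51 in *Trdc*-positive and -0.28, 1.78 and 1.5 in *Ncr1*-positive lymphocytes, and 0.23, 0.15 and 0.38 over all cells. AA+Ab to AA in CD8 lymphocytes changed sign, to 0.00088 with a mitochondrial limit of 5%, 0.084 with a keratin limit of 1%, 0.75 with CD8 and CD4 assigned first, 0.071 with 2 UMIs of *Cd8a* and *Cd8b1*, 0.044 without called doublets and 0.15 by the mean of cell CPM. The cause was not tested. With a keratin limit of 1%, AA to Neg was 0.44 in CD8, 0.20 in *Trdc*-positive and -0.60 in *Ncr1*-positive lymphocytes, AA+Ab to AA 0.067 and 1.99 in the last 2, and AA+Ab to Neg 0.27 in *Trdc*-positive lymphocytes. With a limit of 5%, *Trdc*-positive values were 0.83 and -0.36. With no *Ptprc* UMI needed, *Trdc*-positive values were 0.39 and 0.14 and *Ncr1*-positive values -0.67 and 2.18. With CD8 and CD4 assigned first, AA to Neg was 0.14 in CD8, AA+Ab to AA -2.88 in CD4 and 1.06 in *Ncr1*-positive, and AA+Ab to Neg 0.74 in CD4 and 0.81 in *Ncr1*-positive lymphocytes. With 2 UMIs of *Cd8a* and *Cd8b1*, the AA share of CD8 cells was 1.47%, AA to Neg 0.043 and AA+Ab to Neg 0.11, and *Nkg7* turned to -0.36 and -0.12 in those 2 comparisons. Without called doublets, AA to Neg was 0.42 in CD8, 0.41 in *Trdc*-positive and -0.62 in *Ncr1*-positive lymphocytes, and AA+Ab to AA 0.18 and 2.0 in the last 2. By the mean of cell CPM, AA to Neg was 1.79 in CD4, 0.13 in *Trdc*-positive, -0.51 in *Ncr1*-positive and 0.0079 in all cells, AA+Ab to AA -3.08, 0.22 and 1.44 in those 3 classes, and AA+Ab to Neg 0.35 in *Trdc*-positive, 0.93 in *Ncr1*-positive and 0.17 in all cells, while *Prf1* AA to Neg in *Trdc*-positive lymphocytes turned to -0.020.

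2 alternatives were chosen after seeing the data. Without the cell with the most UMIs of each gene, AA to Neg was 2.38 in CD4, AA+Ab to AA -3.45 in CD4, 1.28 in *Ncr1*-positive and 0.0030 in all cells, AA+Ab to Neg 0.89 in *Ncr1*-positive and 0.24 in all cells, and *Gzmc* AA+Ab to AA over all cells turned to -1.25. Without *Ncr1*-positive cells with *Cd3* UMIs, the 3 ratios there were -0.55, 1.15 and 0.60.

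Numbers of genes past the fold also moved. In CD8 lymphocytes, AA to Neg had 1747 higher and 361 lower genes, 3766 and 1562 with no filter on UMIs and 202 lower with 20 added to each CPM. AA+Ab to AA had 261 and 413, 630 and 809 with no filter and 89 and 152 with 20 added. AA+Ab to Neg had 795 and 176, 3245 and 1483 with no filter and 103 lower with 20 added. Over all cells, AA to Neg had 40 and 14, 140 and 46 with 1 added and 14 and 7 with 20 added. AA+Ab to AA had 24 and 64, 55 and 187 with 1 added and 11 and 24 with 20 added. AA+Ab to Neg had 11 and 12, 41 and 47 with 1 added and 5 and 5 with 20 added.

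Over the alternatives, 1132 values of single genes stayed within the spread set by counting, 83 moved beyond it and 4 whose interval had left out 0 changed sign. Of the summed values, shares and gene counts these were 306, 66 and 6. Values whose interval held 0 are not counted among the changes of sign. The Neg CD8 class of 11 cells limits every comparison with it. No paired analysis was possible because each group had 1 library.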

Other observations

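Outside lymphocytes *Gzmc* was the member with the most cells holding a UMI in Neg. In all other cells it had 73 UMIs in 68 cells of Neg, 175 in 59 cells of AA and 93 in 86 cells of AA+Ab, at most 2 per cell except for 1 AA cell with 113. These cells were described by groups chosen after their values were seen. Cells with at least 5 UMIs of the dividing-cell genes had 0.953, 0.949 and 1.15 *Gzmc* CPM. Other cells that were not dividing had 0.11, 0.139 and 0.0976 CPM, the AA value without the cell with 113 UMIs. Cells with inner root sheath keratins (*Krt25*, *Krt27*, *Krt28* and *Krt71*) at 0.1% of UMIs or more held 25, 17 and 43 of the UMIs, in 25 of 653, 16 of 568 and 40 of 733 cells (1.56, 1.34 and 2.61 CPM). Cells rich in *Krt5* and *Krt14* without those keratins held 3, 8 and 6, and cells with mast cell genes held none in 19, 1 and 5 cells. The AA cell with 113 *Gzmc* UMIs had 5 *Ptprc*, 5 *Cd3g* and 2 *Trdc* UMIs and 2.11% keratin UMIs, just above the limit of 2% for lymphocytes.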
